A study of Mus musculus with 15 samples.

Results

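The genes of the G1 step of the cell cycle that lead to the retinoblastoma protein were followed through RNA from naïve brain and from 4 syngeneic glioblastoma models: the D cyclins (Ccnd1, Ccnd2, Ccnd3), cyclin E1 (Ccne1), the kinases Cdk4 and Cdk6, the INK4 inhibitors (Cdkn2a, Cdkn2b, Cdkn2c) and Rb1. These 10 genes were taken by symbol from a table of 46679 genes, and all 10 were among the 17481 genes that passed the filter on low counts. RNA had been extracted from end-stage tumors of the CT2A, GL261, 005 and Mut3 lines and from naïve brain, with 3 C57BL/6 mice per group and 15 samples in all. Animals aged 6 to 8 weeks had been implanted in the brain with 100000 tumor cells, or with 500000 for Mut3, whereas naïve mice carried no implant. Each model is a single line grown in several mice, and all implanted cells carried the GFP-Fluc imaging marker. CT2A (wild-type p53) and GL261 (K-ras and p53 mutant) came from tumors induced by methylcholanthrene. The 005 line came from a tumor with active H-ras and AKT in p53+/- mice, and Mut3 from a model with inactivated NF1 and p53.

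D cyclins are made when growth factor signals reach a cell, and they bind and switch on the kinases CDK4 and CDK6. These kinases phosphorylate the RB protein, which then lets go of E2F transcription factors, so that cyclin E and the genes of DNA replication are transcribed and the cell enters S phase. INK4 proteins bind CDK4 and CDK6 and block them, and the Cdkn2a locus also encodes ARF, which stabilises p53; this arm is among the most often disrupted in glioblastoma.

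Levels are given as CPM, counts scaled to library size with TMM factors, which compare 1 gene between samples but not 2 genes with each other. Total counts ranged from 3105119 to 13130158 per sample and were lowest in naïve brain (3105119 to 5161132). A gene was called different at a Benjamini-Hochberg adjusted p under 0.05 over all 17481 genes in edgeR's quasi-likelihood test together with a log2 fold change of 1 or more in either direction. The 4 tumor groups share the same 3 naïve brains, so their changes against naïve brain are not independent of each other. 1 library stood apart: 005 replicate 3 lay nearer to naïve brain than to the other 005 tumors in log2 CPM (mean distance 146 against 203), its 8 neuron markers summed to 3223 CPM against 526 and 186, and its 6 proliferation markers to 120 CPM against 1066 and 1119. The log2 fold changes of 005 against naïve brain are therefore given also without it. The share of counts from mitochondrial genes moved with the contrast too: naïve brains had 14.97% to 24.0%, 005 replicate 3 had 17.8% and the remaining tumors had 3.48% to 11.3%. Its part in the results was not tested. The samples are pieces of tissue, so that more cells with a transcript and more transcript per cell cannot be told apart.

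Most of the pathway stood higher in tumors than in naïve brain. In CT2A 6 of the 10 genes were called higher and the other 4 were not called (over all tested genes 39.2% were called and 19.0% called higher). In GL261 8 were called higher (22.4% and 14.6% of all genes), and in 005 6 were called higher (12.7% and 11.6%). In Mut3 5 were called higher and Ccnd2 was called lower (37.8% of all genes called, 17.9% higher and 19.8% lower). The median log2 fold change over the 10 genes was 2.30, 2.69, 1.90 and 1.49 in CT2A, GL261, 005 and Mut3, beside medians of −0.04, −0.08, 0.01 and 0.11 over all tested genes. Cdk4, Cdk6, Cdkn2a and Cdkn2c were called higher in each of the 4 tumors, and Ccne1 in none of them. Without 005 replicate 3, 7 of the 10 genes were called higher in 005 (35.7% of 18300 genes called, 17.6% higher), since Ccnd2 was added. In a fit of 005 and naïve brain alone, Cdk6 was the only 1 of the 10 genes called (4.00, adjusted p = 0.049), and Cdkn2a did not pass the count filter of that fit. Over all genes that fit called 222 of 14993, against 2217 of 17481 in the fit of all groups.

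**Figure D1:**
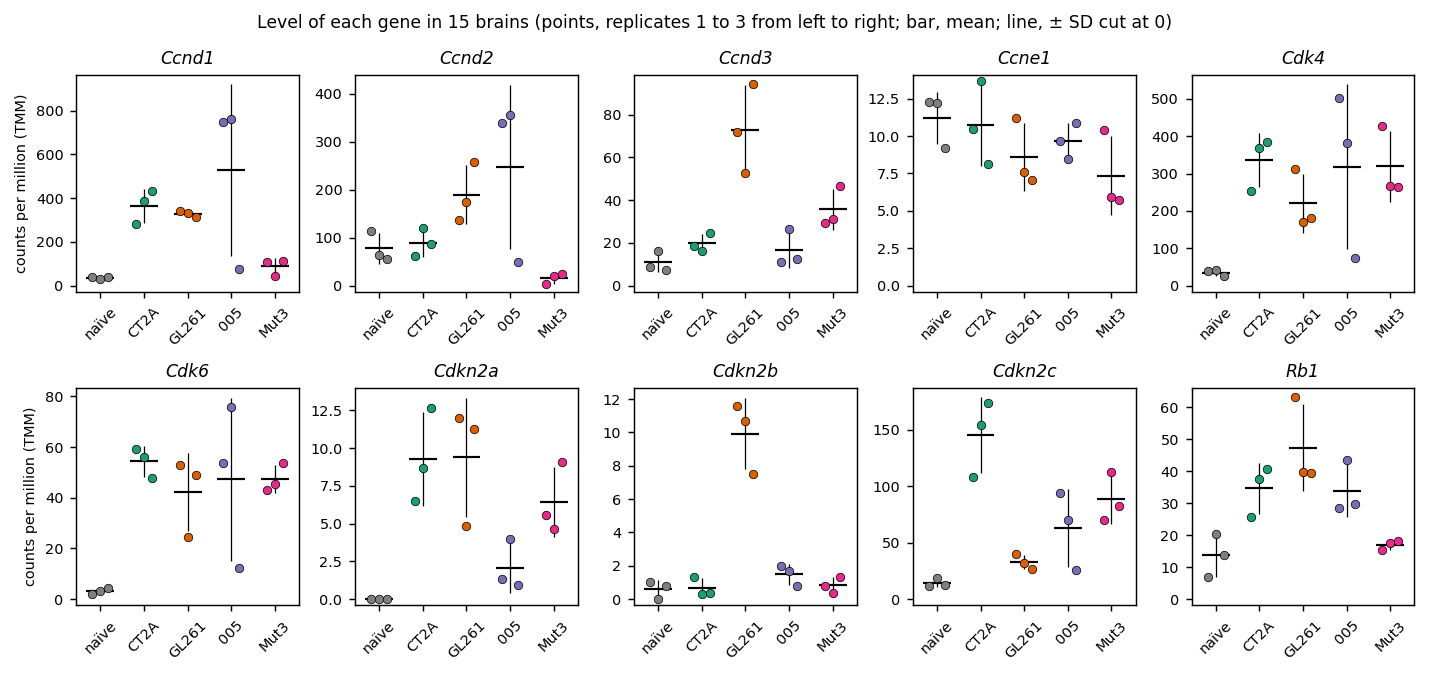
Level of each of the 10 genes in every brain, in CPM on linear axes that start at 0, with 3 mice per group; the bar is the mean and the line ± SD, cut at 0. Cdk4, Cdk6 and Cdkn2a separated all tumors from naïve brain, Cdkn2b stood out in GL261, and 005 replicate 3 (rightmost purple point) lay far below the other 2 005 tumors for Ccnd1, Ccnd2, Cdk4 and Cdk6.

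Ccnd1, the D cyclin most directly tied to growth factor signalling, measured 38.1, 30.9 and 41.1 CPM in the 3 naïve brains. It measured 281, 385 and 433 CPM in CT2A and 341, 332 and 312 CPM in GL261. In 005 it measured 746, 762 and 74.5 CPM and in Mut3 107, 43.8 and 114 CPM. Every tumor thus lay above every naïve brain, but the lowest Mut3 tumor (43.8 CPM) lay close to the highest naïve brain (41.1 CPM), and 005 replicate 3 fell in the range of Mut3. The log2 fold change against naïve brain was 3.32 (SE 0.63, adjusted p = 0.0019) in CT2A. It was 3.16 (SE 0.63, adjusted p = 0.0036) in GL261 and 3.84 (SE 0.65, adjusted p = 0.0023) in 005. The Mut3 difference of 1.26 (SE 0.59, adjusted p = 0.10) was not called in the fit of all groups, but was called with an adjusted p of 0.022 when only Mut3 and naïve brain were fitted. Without 005 replicate 3 the 005 value was 4.29, and a fit of 005 and naïve brain alone gave 3.92 and lost the call (adjusted p = 0.053).

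Ccnd2, the D cyclin of neural progenitors and of many lymphoid cells, was the only member called lower in a tumor. It measured 115, 63.3 and 56.0 CPM in naïve brain and 61.8, 121 and 86.4 CPM in CT2A, which overlapped. GL261 stood at 137, 175 and 257 CPM, above all naïve brains, and 005 at 338, 355 and 49.6 CPM, of which the third was below all naïve brains. Mut3 was the lowest group, at 3.02, 19.8 and 24.4 CPM, and none of its tumors reached a sample of another group. Only the decrease in Mut3 was called, with a log2 fold change of −2.31 (SE 0.71, adjusted p = 0.019). That call was lost when naïve replicate 1 (adjusted p = 0.070) or Mut3 replicate 1 (adjusted p = 0.060) was left out. CT2A (0.20, adjusted p = 0.83), GL261 (1.28, adjusted p = 0.17) and 005 (1.66, adjusted p = 0.12) were not called, although 005 without replicate 3 was, at 2.08 (adjusted p = 0.013). A fit of GL261 and naïve brain alone also called Ccnd2, at 1.41 (adjusted p = 0.014).

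Marker levels of other cell types also differed from naïve brain, both in Mut3, where Ccnd2 was low, and in the lines where Ccnd2 was not called lower. The 8 neuron markers summed to 55.3 to 128 CPM in Mut3 against 3842 to 5728 CPM in naïve brain, and all 8 were called lower. In CT2A, where the Ccnd2 value was 0.20, they summed to 206 to 963 CPM and all 8 were called lower as well. Over all genes 19.8% were called lower in Mut3 and 20.2% in CT2A. The neuron markers summed to 788 to 1703 CPM in GL261 and to 526, 186 and 3223 CPM in 005. In GL261 and 005 0 of the 8 were called (7.77% and 1.05% of all genes called lower), with median log2 fold changes of −2.09 and −1.81. The 8 microglia and macrophage markers summed to 58.1 to 157 CPM in Mut3 against 154 to 208 CPM in naïve brain. In Mut3 5 of the 8 were called lower. Their sum was 240 to 345 CPM in CT2A, 447 to 759 CPM in GL261 and 422 to 968 CPM in 005. In each of these lines 4 of the 8 were called higher (19.0%, 14.6% and 11.6% of all genes). In CT2A 1 of the 8 was called lower, a share below the 20.2% over all genes. The 6 T cell markers summed to 4.69 to 30.9 CPM in naïve brain, 6.94 to 20.8 CPM in Mut3 and 28.6 to 47.8 CPM in CT2A. Their sum was 66.9 to 122 CPM in GL261 and 62.5 to 350.1 CPM in 005. No marker of these lists was at 0 in all 3 samples of a group, and their part in the Ccnd2 levels was not tested.

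Ccnd3, the D cyclin prominent in blood cells and in muscle, measured 8.98, 16.2 and 7.57 CPM in naïve brain. GL261 was highest, at 71.7, 52.7 and 94.4 CPM, and Mut3 followed at 29.4, 31.2 and 46.7 CPM. CT2A stood at 18.7, 16.5 and 24.8 CPM and 005 at 11.1, 26.7 and 12.4 CPM. All GL261 tumors exceeded every other sample, and all Mut3 tumors exceeded naïve brain, CT2A and 005. The increase was called in GL261, at 2.74 (SE 0.42, adjusted p = 7.74e-04), and in Mut3, at 1.71 (SE 0.41, adjusted p = 0.0048). The values of 0.87 in CT2A (adjusted p = 0.096) and 0.61 in 005 (adjusted p = 0.30) were not called, and the 005 value was 0.72 without replicate 3. CT2A was called without naïve replicate 2, at 1.48 (adjusted p = 0.026), and the Mut3 call was lost on the log2(TPM + 1) scale, at 0.75 (limma, adjusted p = 0.13).

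The make-up of the D cyclins was compared as each gene's share of their summed TPM (a measure scaled by transcript length). In naïve brain Ccnd2 held 88.7, 77.9 and 79.6% of this sum. Its share was 45.05, 55.5 and 43.2% for CT2A, 52.3, 61.4 and 65.6% for GL261, 66.1, 65.4 and 66.4% for 005 and 6.50, 38.7 and 29.8% for Mut3. All 12 tumors lay below all 3 naïve brains, with a difference in means of −32.4 points (two-sided exact permutation test of 12 tumors against 3 naïve brains, p = 0.0044, adjusted p = 0.0088 over 4 shares). Ccnd1 held 6.55, 8.45 and 13.0% in naïve brain and from 17.8% to 50.5% in the tumors. Its share was higher in 12 of 12 tumors than in any naïve brain, by a mean of 23.4 points (exact p = 0.0044, adjusted p = 0.0088). The 3 mice of a line are not independent samples of tumors in general, and 3 tumors of a line against 3 naïve brains could not give a two-sided p below 0.1.

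The Ccnd3 share was 43.0, 42.1 and 39.2% in Mut3 and at most 18.8% in the other samples, which is given as a description. Over all 12 tumors its share differed from naïve brain by 9.04 points, which did not pass (exact p = 0.39). The summed D cyclin TPM was 46.0 ± 16.2 (SD, n = 3) for naïve brain, 44.8 ± 5.57 for CT2A, 89.1 ± 33.1 for GL261, 107 ± 64.5 for 005 and 16.5 ± 5.03 for Mut3. The shares rest on transcript lengths that the authors' TPM imply, which relative to Cdk4 were 4.05 for Ccnd1 and 0.902 for Ccnd2, beside 1.82 and 3.08 for the longest annotated coding transcripts. With those annotated lengths Ccnd2 held 44.0% in naïve brain and Ccnd1 80.5% in CT2A, so which D cyclin leads within a sample depends on the lengths. The tumors then differed from naïve brain by 28.9 points for Ccnd1 and by −29.3 points for Ccnd2, but the Ccnd1 shares overlapped, with 39.6% in the lowest Mut3 tumor and 47.0% in the highest naïve brain. All Ccnd2 shares in tumors stayed below those in naïve brain (at most 24.0% against at least 37.8%). The Ccnd3 share was 32.4% to 49.9% in Mut3 and reached 29.55% in naïve brain.

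**Figure D2:**
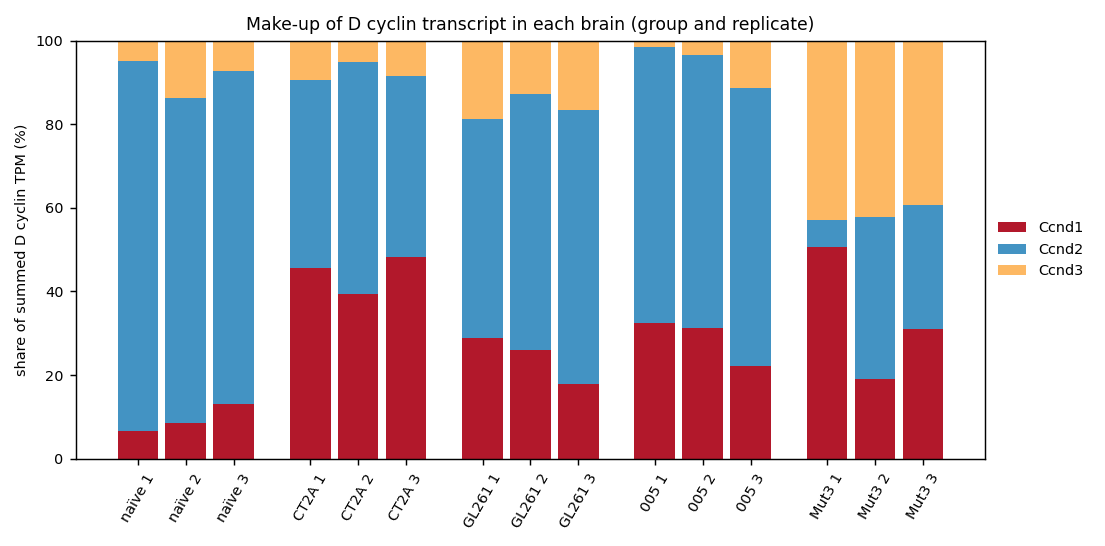
Share of Ccnd1, Ccnd2 and Ccnd3 in the summed D cyclin TPM of each brain, in percent, 1 bar per mouse. The Ccnd2 share was 77.9% or more in the 3 naïve brains and 66.4% or less in the 12 tumors, and Ccnd3 made up 39.2% to 43.0% in Mut3.

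Ccne1, which drives CDK2 after RB has been phosphorylated, was not called in any comparison. Its levels spanned 5.72 to 13.7 CPM over all 15 samples, with a mean of 11.2 ± 1.75 CPM (SD, n = 3) for naïve brain, 10.8 ± 2.77 for CT2A, 8.61 ± 2.25 for GL261, 9.68 ± 1.22 for 005 and 7.34 ± 2.65 for Mut3. The ranges of all 5 groups overlapped in CPM. In TPM all tumors of CT2A, GL261 and Mut3 (at most 1.67, 1.38 and 1.52) lay below naïve brain (1.93 to 4.19). The 005 tumors, at 1.29 to 2.59 TPM, overlapped it. Ccne1 was the only 1 of the 10 genes that did not pass the joint edgeR test of the 5 groups (adjusted p = 0.49), which 9 of the 10 genes passed (52.1% of all tested genes did). In none of the 10 comparisons was it called by edgeR, DESeq2 or limma, and none had an unadjusted edgeR p under 0.05. The largest difference, in Mut3 against naïve brain, was a log2 fold change of −0.61 (SE 0.35, adjusted p = 0.18).

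**Figure D3:**
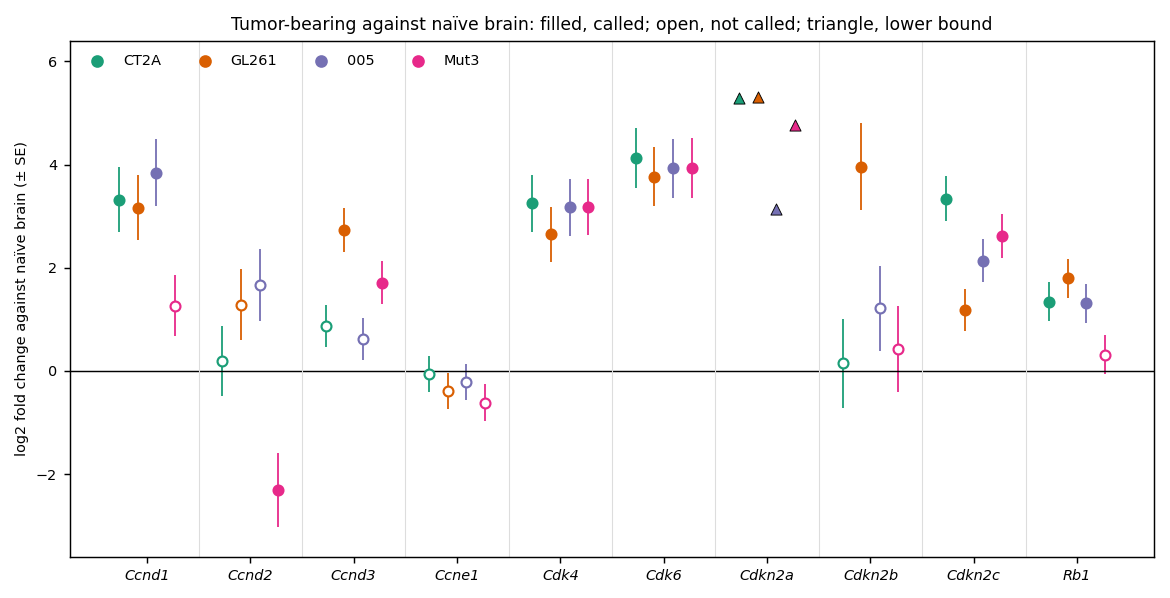
Log2 fold change of each gene in each tumor against naïve brain, with its standard error; filled points were called, open points were not, and triangles mark the lower bounds for Cdkn2a, whose counts were 0 in naïve brain. Cdk4 ranged from 2.65 to 3.25 and Cdk6 from 3.76 to 4.13 over the 4 tumors, whereas Ccnd2 ranged from −2.31 in Mut3 to 1.66 in 005.

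Cdk4, a catalytic partner of the D cyclins, measured 38.6, 41.1 and 26.0 CPM in naïve brain. Its levels were 253, 368 and 386 CPM in CT2A, 312, 171 and 179.9 CPM in GL261, 501, 382 and 72.8 CPM in 005 and 428, 267 and 263 CPM in Mut3. All tumors lay above all naïve brains, and 005 replicate 3 was the lowest tumor. The log2 fold change was 3.25 (SE 0.55) for CT2A, 2.65 (SE 0.54) for GL261, 3.17 (SE 0.55) for 005 and 3.18 (SE 0.55) for Mut3, with adjusted p from 8.38e-04 to 0.0040 in edgeR. Without 005 replicate 3 the 005 value was 3.58. A fit of 005 and naïve brain alone gave an adjusted p of 0.056 for Cdk4.

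Cdk6, the second of these kinases, was low in naïve brain, at 2.04, 2.99 and 4.33 CPM. It stood at 59.2, 56.0 and 47.7 CPM in CT2A, 52.9, 24.6 and 49.0 CPM in GL261, 53.7, 75.8 and 12.2 CPM in 005 and 43.1, 45.3 and 53.6 CPM in Mut3. No tumor overlapped naïve brain, and 005 replicate 3 was again the lowest. The log2 fold changes of 4.13, 3.76, 3.93 and 3.93 in CT2A, GL261, 005 and Mut3 were all called (adjusted p from 3.55e-04 to 0.0018 in edgeR), and the 005 value was 4.32 without replicate 3. On the log2(TPM + 1) scale the Cdk6 differences were 0.58 to 0.67 with adjusted p under the threshold but a fold change below it. Cdk6 was under 1.16 TPM in every sample. Neither kinase passed the joint test of the 4 tumor lines (adjusted p = 0.71 for Cdk4 and 0.92 for Cdk6, with 26.8% of all genes passing), and in none of the 6 pairs of lines was either called by edgeR, DESeq2 or limma or had an unadjusted edgeR p under 0.05. Cdk6 made up 0.324% to 0.967% of the summed TPM of both kinases in naïve brain and 0.595% to 1.59% in tumors, a difference of 0.43 points that did not pass after adjustment (exact permutation p = 0.044, adjusted p = 0.059). This share too depends on the lengths: the TPM imply a Cdk6 length of 16.8 relative to Cdk4, against 5.61 for the longest annotated coding transcripts, with which the difference was 1.24 points.

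Cdkn2a, which encodes p16INK4a and, from another first exon, p19ARF, was counted 0 times in all 3 naïve brains. It measured 6.47, 8.69 and 12.7 CPM in CT2A, 12.02, 4.85 and 11.3 CPM in GL261 and 5.59, 4.66 and 9.06 CPM in Mut3. In 005 it measured 1.34, 3.98 and 0.926 CPM, from 12.7, 32.6 and 13.3 counts. Every tumor of every line thus carried Cdkn2a reads, and all 005 tumors lay below all tumors of the other lines. With the floor of 3 counts over the naïve group (0.238 CPM), the mean level was at least 39.0-fold higher in CT2A, 39.5-fold in GL261, 8.76-fold in 005 and 27.1-fold in Mut3, and edgeR called each of the 4 increases (adjusted p = 3.77e-04, 4.78e-04, 0.0054 and 4.71e-04). The call in 005 was kept without replicate 3 (adjusted p = 0.0012). The floor covers counting error only.

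The Cdkn2a row pools both products, since it is a sum over the gene. In the GENCODE M21 annotation the p19ARF transcript starts in an exon at chr4:89294334-89294653 (320 bases) and the p16INK4a transcript in an exon at chr4:89281986-89282192 (207 bases), on the minus strand of GRCm38, and the 2 transcripts share 575 bases. Which of them the tumors transcribed was not measured here. Promoter windows from RefSeq (build GRCm38.p6) were found for 7 of the 10 genes, namely Ccnd3, Ccne1, Cdk4, Cdk6, Cdkn2a, Cdkn2b and Cdkn2c, but not for Ccnd1, Ccnd2 and Rb1. The bases before the start sites are shown for Cdkn2a and Cdkn2b, because these neighbours differed in where they were called: Cdkn2a in all 4 lines and Cdkn2b in GL261 alone. Of the 250 bases before each RefSeq start, those inside an annotated GENCODE exon of the gene were left out, 34 at the ARF start and 7 for Cdkn2b. The stretches are printed 5′ to 3′ on the minus strand, at chr4:89294654-89294869 for the ARF start, chr4:89282193-89282442 for the p16INK4a start and chr4:89311040-89311282 for Cdkn2b. Capitals mark the letters of an E2F motif.
Cdkn2a, ARF start: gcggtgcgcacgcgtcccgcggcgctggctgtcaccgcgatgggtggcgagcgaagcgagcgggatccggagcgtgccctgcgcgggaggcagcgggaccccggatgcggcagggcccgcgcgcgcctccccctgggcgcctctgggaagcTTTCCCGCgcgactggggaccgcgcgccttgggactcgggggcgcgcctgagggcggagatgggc
Cdkn2a, p16INK4a start: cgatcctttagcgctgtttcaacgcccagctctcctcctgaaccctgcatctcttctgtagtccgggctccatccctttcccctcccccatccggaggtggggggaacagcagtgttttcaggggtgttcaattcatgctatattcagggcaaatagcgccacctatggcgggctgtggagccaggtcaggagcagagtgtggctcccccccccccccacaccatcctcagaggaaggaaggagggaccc
Cdkn2b: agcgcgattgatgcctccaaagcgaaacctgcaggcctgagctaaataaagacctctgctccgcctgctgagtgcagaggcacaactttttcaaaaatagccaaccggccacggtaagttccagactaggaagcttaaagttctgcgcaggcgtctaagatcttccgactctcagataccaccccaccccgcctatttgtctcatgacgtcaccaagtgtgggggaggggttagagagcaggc

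The motif was searched as TTTCCCGC, TTTGGCGC, TTTCGCGC or TTTGCCGC on both strands, spellings that all begin with TTT and end with CGC. Of the 10 windows of these genes (250 bases before to 50 after a start) 1 held it, the ARF window, with TTTCCCGC from 99 bases before the start site. Of all 32851 promoter windows 744 (2.26%) held it. Of the bases shown, 78.7% were G or C at the ARF start, 60% at the p16INK4a start and 53.5% for Cdkn2b. A match describes these letters only.

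Cdkn2b, which encodes p15INK4b and lies 11.65 kb from Cdkn2a, was called in GL261 alone. It measured 1.02, 0 and 0.811 CPM in naïve brain and 11.6, 10.7 and 7.52 CPM in GL261. CT2A stood at 1.34, 0.31 and 0.388 CPM, 005 at 1.96, 1.69 and 0.783 CPM and Mut3 at 0.783, 0.378 and 1.32 CPM. All GL261 tumors lay above every other sample, whereas the other 3 lines overlapped naïve brain. The log2 fold change in GL261 was 3.96 (SE 0.84, adjusted p = 0.005). It was 0.15 (SE 0.86) in CT2A, 1.21 (SE 0.82) in 005 and 0.43 (SE 0.84) in Mut3, with adjusted p from 0.32 to 0.90, and 1.46 in 005 without replicate 3. Outside GL261 these levels rest on 0 to 19.2 counts per sample, and the SE of the fold changes there was 0.82 to 0.86.

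Cdkn2c, which encodes p18INK4c, was expressed in naïve brain at 11.6, 18.7 and 12.7 CPM. It reached 108, 154 and 173 CPM in CT2A and 69.9, 112 and 82.7 CPM in Mut3. In 005 it measured 94.0, 69.5 and 25.6 CPM and in GL261 39.6, 31.8 and 26.7 CPM. Every tumor lay above every naïve brain in CPM. In TPM naïve replicate 2 (7.96) lay above all GL261 tumors (5.71 to 6.08) and above 005 replicate 3 (7.59). CT2A was highest on average but overlapped Mut3, and 005 replicate 3 and the GL261 tumors were lowest. The increase was called in CT2A, at 3.34 (SE 0.44, adjusted p = 2.50e-04), in Mut3, at 2.62 (SE 0.42, adjusted p = 6.15e-04), and in 005, at 2.13 (SE 0.42, adjusted p = 0.0047). Without replicate 3 the 005 value was 2.44, and in a fit of 005 and naïve brain alone the call was lost (adjusted p = 0.073). The GL261 value of 1.19 (SE 0.41, adjusted p = 0.049) was just past the threshold and was lost in 6 of 6 fits that left out a naïve or GL261 replicate (adjusted p from 0.051 to 0.14) and with library-size scaling (adjusted p = 0.078). On the log2(TPM + 1) scale the GL261 value was 0.32 and not called (limma, adjusted p = 0.43).

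Rb1, the target of the CDK4 and CDK6 kinases, rose in 3 of the 4 tumors. Its levels were 6.73, 20.4 and 13.8 CPM in naïve brain and 63.2, 39.6 and 39.3 CPM in GL261. CT2A stood at 25.6, 37.6 and 40.6 CPM, 005 at 28.3, 43.3 and 29.8 CPM and Mut3 at 15.2, 17.5 and 18.1 CPM. The CT2A, GL261 and 005 tumors lay above all naïve brains, and Mut3 lay within their range. The log2 fold change was 1.80 (SE 0.38, adjusted p = 0.0052) in GL261, 1.34 (SE 0.38, adjusted p = 0.012) in CT2A and 1.31 (SE 0.38, adjusted p = 0.034) in 005. Mut3 differed by 0.32 (SE 0.37, adjusted p = 0.52), which was not called. On the log2(TPM + 1) scale, where the median of all tested genes moved by −0.23 to −0.38 against naïve brain, no Rb1 increase was called, with values of 0.38, 0.93 and 0.69 in CT2A, GL261 and 005 and −0.34 in Mut3. The Rb1 value in 005 without replicate 3 was 1.33 (adjusted p = 0.0195). The Rb1 call in 005 was lost in a fit of 005 and naïve brain alone (adjusted p = 0.18), with library-size scaling (adjusted p = 0.081) and without naïve replicate 1 or 3 or 005 replicate 1 or 2 (adjusted p from 0.054 to 0.15).

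Several of these genes overlap others on the genome, and whether counting used the strand is not given in the sources used here. Cdk4 overlaps Tspan31 on the opposite strand, which had 75.2 to 2191 counts per sample, so that reads of the shared stretch cannot be assigned to a strand. Tspan31 itself was called in no tumor against naïve brain by edgeR (log2 fold changes from 0.17 to 1.03). Ccnd2 overlaps the antisense gene Gm43126 (32.4 to 1238 counts per sample), and Rb1 overlaps Lpar6 and Rcbtb2 on the opposite strand (9.60 to 188 and 46.1 to 256 counts). Ccnd1 and Ccnd3 also each overlap a coding gene on the opposite strand (28.6 to 595 and 32.8 to 209 counts).

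The lines were then compared with each other, in the same fit of all 15 samples, so that the naïve brains entered the filter, the scaling and the estimate of the spread. Between lines, 6 of the 10 genes differed in the joint test of the 4 tumors: Ccnd1 (adjusted p = 0.033), Ccnd2 (0.0084), Ccnd3 (0.0039), Cdkn2b (0.0027), Cdkn2c (0.0084) and Rb1 (0.044), beside 26.8% of all tested genes. Cdkn2a just missed (adjusted p = 0.054). GL261 against Mut3 had the most calls, 5 of 10, with 4 higher and 1 lower (17.2% of all genes called, 11.1% higher and 6.10% lower). CT2A against 005 had none (4.11% of all genes called, 2.12% higher and 1.99% lower). In that last pair 2 genes had an unadjusted edgeR p under 0.05, and DESeq2 called 2 and limma 1 (1775 and 477 of all 17481 genes). CT2A against GL261 had 3 calls, 1 higher and 2 lower (7.77% of all genes called, 4.15% higher and 3.62% lower). CT2A against Mut3 had 2 calls, both higher (12.8%, 6.61% higher and 6.15% lower), and so had 005 against Mut3 (19.8%, 14.0% higher and 5.76% lower). GL261 against 005 had 1, higher (2.62%, 1.73% higher and 0.887% lower). Without 005 replicate 3, GL261 against 005 had 3 calls (5.86% of all genes called): Ccnd3 was higher (1.94, adjusted p = 0.022), and Ccnd1 (−1.21, adjusted p = 0.049) and Cdkn2c (−1.34, adjusted p = 0.022) were lower in GL261.

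**Figure D4:**
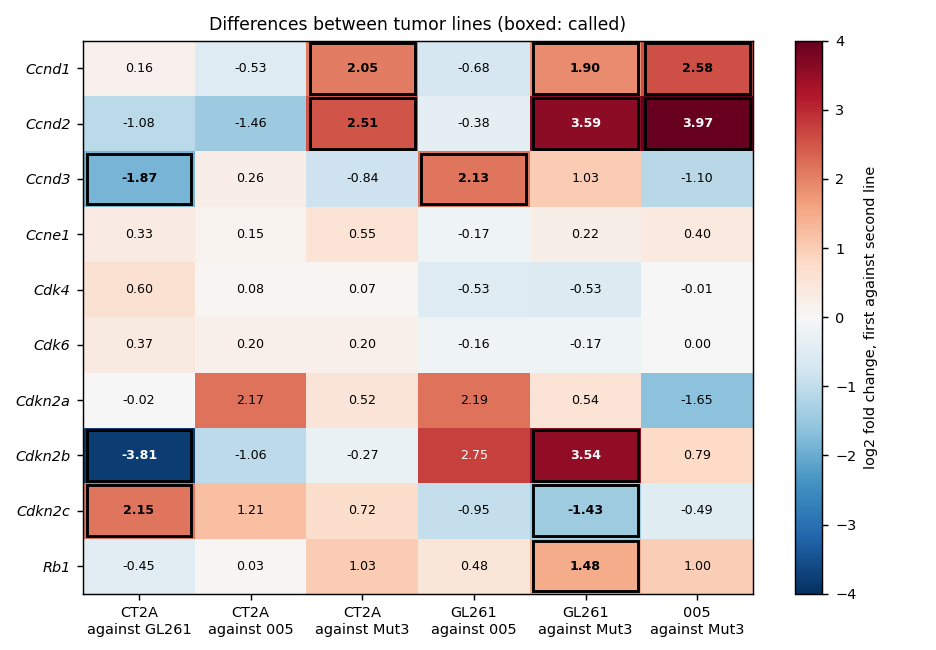
Log2 fold change between each pair of tumor lines, first line against second, for the 10 genes; boxed values were called. The boxes for Ccnd1 and Ccnd2 lie in the 3 comparisons with Mut3, and the rows of Ccne1, Cdk4 and Cdk6 hold no box.

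Mut3 was set apart by low Ccnd1 and Ccnd2. Ccnd1 was higher in CT2A than in Mut3 by a log2 fold change of 2.05 (SE 0.60, adjusted p = 0.036), in GL261 by 1.90 (SE 0.60, adjusted p = 0.04) and in 005 by 2.58 (SE 0.61, adjusted p = 0.011). The 005 tumors overlapped Mut3 through replicate 3, without which the value was 3.03, and a fit of 005 and Mut3 alone did not call Ccnd1 (adjusted p = 0.084) or Ccnd2 (adjusted p = 0.052). Ccnd2 was higher than in Mut3 by 2.51 (SE 0.72, adjusted p = 0.033) in CT2A, 3.59 (SE 0.75, adjusted p = 0.0063) in GL261 and 3.97 (SE 0.76, adjusted p = 0.0038) in 005. The last value was 4.39 without 005 replicate 3. The 2 CT2A calls were lost in 4 or more of 6 fits that left out a replicate: Ccnd1 without CT2A replicate 2 or 3 or any Mut3 replicate (adjusted p from 0.059 to 0.13), and Ccnd2 without CT2A replicate 2 or 3 or Mut3 replicate 1 or 2 (adjusted p from 0.068 to 0.091). Ccnd1 in GL261 against Mut3 was lost whichever replicate was left out (adjusted p from 0.063 to 0.13). Rb1 was higher in GL261 than in Mut3 (1.48 (SE 0.37, adjusted p = 0.016)), a call that was lost without Mut3 replicate 1 (adjusted p = 0.052).

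Ccnd3, Cdkn2b and Cdkn2c were each called in GL261 against some of the other lines, none of them against all 3. Ccnd3 was higher in GL261 than in 005, by 2.13 (SE 0.41, adjusted p = 0.011), and lower in CT2A than in GL261, with a log2 fold change of −1.87 (SE 0.40, adjusted p = 0.011). The value in GL261 against Mut3, 1.03, was not called (adjusted p = 0.083). Both Ccnd3 calls were lost without GL261 replicate 3 (adjusted p = 0.061 against CT2A and 0.064 against 005), the first also without CT2A replicate 2 (0.064) and the second without 005 replicate 1 (0.069) and in a fit of GL261 and 005 alone (0.088). Cdkn2b was called different in GL261 against Mut3, at 3.54 (SE 0.77, adjusted p = 0.0079), and in CT2A against GL261, at −3.81 (SE 0.79, adjusted p = 0.0092), of which the latter was lost without CT2A replicate 2 or 3 (adjusted p = 0.056 and 0.058). The Cdkn2b value in GL261 against 005 was 2.75 (SE 0.74, adjusted p = 0.066) and not called by edgeR, although no 005 tumor reached a GL261 tumor and DESeq2 called it at 2.76 (adjusted p = 0.0015). Cdkn2c was higher in CT2A than in GL261, by 2.15 (SE 0.41, adjusted p = 0.0059), and GL261 stood lower than Mut3, at −1.43 (SE 0.40, adjusted p = 0.026), a call that was lost whichever replicate was left out (adjusted p from 0.062 to 0.086). Against 005, which it overlapped, GL261 differed by −0.95 in Cdkn2c (SE 0.40, adjusted p = 0.28), which was not called with all samples.

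For Cdkn2a the low level in 005 was not called in any pair by edgeR, although 3 pairs had an unadjusted p under 0.05. The log2 fold change was 2.17 (SE 0.60, adjusted p = 0.062) for CT2A against 005, 2.19 (SE 0.60, adjusted p = 0.085) for GL261 against 005 and −1.65 (SE 0.59, adjusted p = 0.066) for 005 against Mut3. DESeq2 called all 3 of these pairs and limma 2, and edgeR called all 3 once 005 replicate 2 was left out (adjusted p from 0.014 to 0.027). Without 005 replicate 3, the library that stood apart, none of the 3 was called (adjusted p from 0.11 to 0.15).

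The coding genes nearest to these loci were read from the same fit. Mtap, an enzyme gene 93.4 kb from Cdkn2a, was called higher in each of the 4 tumors, with log2 fold changes of 2.73 for CT2A, 2.17 for GL261, 1.49 for 005 and 3.49 for Mut3. It measured 15.3, 10.7 and 22.4 CPM in naïve brain and 73.0, 77.7 and 67.0 CPM in GL261, without overlap. Dmrta1, a transcription factor gene 368 kb beyond Cdkn2b, measured 0.816, 0.498 and 0.27 CPM in naïve brain, 4.40, 5.43 and 4.91 CPM in CT2A and 0, 0.323 and 0 CPM in GL261. It was called higher in CT2A, 005 and Mut3, but GL261, the line with the most Cdkn2b, was the line with 0 to 1.92 counts of Dmrta1 per sample. The other 3 of the 6 nearest coding genes of Cdkn2a, namely Ifne, Ifna1 and Zfp352, did not pass the filter on low counts.

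Around Cdk4, none of its 5 tested neighbours was called higher in any tumor by edgeR. March9 was called lower in CT2A and Mut3 (−1.76 and −1.47) and Agap2, a GTPase-activating protein gene expressed in brain, in CT2A, GL261 and Mut3 (−3.79, −2.18 and −5.05), whereas Mettl1, Tspan31 and Os9 were not called. The 3 coding genes nearest Cdk6 toward higher coordinates, Fam133b, 1700109H08Rik and Rbm48, lay between −0.67 and 0.09 and none was called. Of the 3 tested neighbours of Ccnd2, Tigar was called lower in CT2A (−1.32), Parp11 higher in GL261 (2.43) and Prmt8 lower in CT2A and Mut3 (−3.13 and −5.77).

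The other genes of the pathway were followed in lists. Over all tested genes 19.0% were called higher and 20.2% lower in CT2A, 14.6% and 7.77% in GL261, 11.6% and 1.05% in 005 and 17.9% and 19.8% in Mut3, and the counts of each list stand beside these shares. Of 18 S phase genes that E2F factors transcribe, 17 were called higher in CT2A and in Mut3 and 16 in GL261 and in 005, with medians of 3.68, 3.97, 2.81 and 2.92. Tk1, a thymidine kinase, changed most in each tumor, at 5.66, 4.81, 4.65 and 6.09 in CT2A, GL261, 005 and Mut3. All 6 proliferation markers were called higher in each tumor, led by Bub1 in CT2A (5.40), Aurka in GL261 (4.77) and 005 (4.83) and Mki67 in Mut3 (6.54). Mki67, a marker of cycling cells, measured 3.06, 2.24 and 1.89 CPM in naïve brain and 273, 122.9 and 284 CPM in Mut3. It measured 62.0, 82.3 and 76.0 CPM in CT2A, 34.0, 37.7 and 54.7 CPM in GL261 and 63.4, 94.3 and 7.90 CPM in 005. On average Mut3, the line with the least Ccnd1 and Ccnd2 of the 4, held the most Mki67, and the difference was called against GL261 (−2.43) and 005 (−2.04) but not against CT2A. Mki67 was the only 1 of the 6 markers called in these pairs (17.2% and 19.8% of all genes called). In CT2A against Mut3 0 of 6 were called, and their median log2 fold change was 0.55. The 6 markers summed to 754 to 1717 CPM in Mut3, which overlapped CT2A (831 to 1289 CPM) and 005 (120 to 1119 CPM) but not GL261 (607 to 728 CPM).

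Of the 12 genes of the RB family and the E2F factors, 5 were called higher for CT2A, 3 for GL261, 3 for 005 and 6 for Mut3, and the others were not called. The largest changes were E2f8 in CT2A (3.87) and 005 (5.44), the RB relative Rbl1 (p107) in GL261 (3.37) and E2f2 in Mut3 (4.88). Between lines E2f1 was higher in CT2A than in Mut3 (1.16), E2f2 lower in GL261 than in Mut3 (−2.17) and the E2F partner Tfdp2 lower in 005 than in Mut3 (−1.47). Among the S phase genes Pola1 was higher in CT2A than in 005 (1.33), Rrm2 lower in GL261 than in Mut3 (−2.08) and Mcm5 lower in 005 than in Mut3 (−1.87).

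The 10 genes of the cyclin E and CIP/KIP arm were mixed: 3 higher and 3 lower in CT2A, 4 and 1 in GL261, 2 and 1 in 005 and 4 and 1 in Mut3. The 3 higher and 3 lower of 10 in CT2A were not far from the 19.0% and 20.2% over all genes. Fbxw7, which marks cyclin E for destruction, was the most reduced in each tumor, at −3.13 for CT2A, −2.51 for GL261, −1.84 for 005 and −4.23 for Mut3. Cdk2, the partner of cyclin E, was the most raised in GL261 (3.79), 005 (3.81) and Mut3 (4.21), and Cks1b, a small CDK-binding protein, in CT2A (5.06). The CIP/KIP inhibitor Cdkn1c (p57) averaged 26.3 CPM in Mut3 against 0.952 in CT2A, 3.68 in GL261 and 2.16 in 005, and was called higher in Mut3 in each of the 3 comparisons. Cdkn1a (p21), a p53 target, was called higher in GL261 alone (2.19 (SE 0.72, adjusted p = 0.042)), with 1.67, 1.23 and 0.85 in CT2A, 005 and Mut3, and Cdkn1b (p27) in none of the 4 (0.44 to 0.62; adjusted p from 0.10 to 0.24 in edgeR).

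Of 10 regulators of D cyclin and INK4 genes, 5 were called higher and 2 lower in CT2A, 3 higher in GL261, 2 higher in 005, and 3 higher and 2 lower in Mut3. The 2 higher of 10 in 005 and the 2 lower in CT2A and in Mut3 were near the shares over all genes (11.6% higher, and 20.2% and 19.8% lower). Ezh2, the histone methyltransferase of the Polycomb complex that represses the Cdkn2a locus in many cells, was the most raised in CT2A (4.05, adjusted p = 4.07e-04) and GL261 (3.97, adjusted p = 5.53e-04). Myc was the most raised in 005 (3.38, adjusted p = 0.0018) and Mut3 (5.16, adjusted p = 5.44e-05), and Mut3 held more of it than CT2A, GL261 and 005 (135 CPM on average against 28.6, 25.4 and 39.2, called in each pair). Cbx7, a Polycomb subunit, was the most reduced in Mut3 (−4.15, adjusted p = 4.21e-04), and Mycn in CT2A (0.0838 CPM on average against 5.14).

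Trp53 and Nf1, named in the descriptions of the lines, were checked at the RNA level, which cannot show an inactivating mutation. Trp53 was called higher in CT2A (2.53), GL261 (1.74) and Mut3 (2.50) and measured 14.6, 20.2 and 19.7 CPM in 005, where the value of 0.76 was not called. Trp53 was also the 1 regulator called higher in CT2A than in 005 (1.77). Nf1 was called higher in GL261, 005 and Mut3 (1.70, 1.98 and 1.05).

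The genes most like each member were taken as those with the highest Pearson correlation of log2 CPM over the 15 samples, which share naïve brains and libraries and are given as a description. Cdk6 was closest to the mitotic genes Tpx2, Pimreg and Prc1 (r = 0.98 each), and Cdk4 to Mthfd2, a mitochondrial folate enzyme, and the ribosomal protein genes Rps10 and Rpl18 (r = 0.98 each). Ccnd1 was closest to Anln, Pvr and Plaur (r from 0.94 to 0.95), and Ccnd2 to Fam210b, D630008O14Rik and Cd33 (0.91 to 0.93). Ccnd3 was closest to Ugdh, Sdf2l1 and H2-Eb2 (0.91 to 0.94), and Rb1 to the interferon-linked Dtx3l and Oas1g and to Tlr4 (0.95 each). Cdkn2a was closest to Ltbr, Ets1 and Insl6 (0.97 each), Cdkn2b to Eif2d, 4930550L24Rik and Rfx6 (0.90 to 0.92) and Cdkn2c to Ube2d3, Ahnak2 and Rps3a1 (0.96 each), whereas Ccne1 had no gene above 0.82 (Mir678, then Gatd1 and Lamb3).

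Within the 10 genes, Cdk4 and Cdk6 were the closest pair (r = 0.94), followed by Cdk6 with Cdkn2a (0.91) and Cdk4 with Cdkn2c (0.87). The 2 neighbours Cdkn2a and Cdkn2b had r = 0.40, and Ccnd2 had r between −0.11 and 0.57 with the other 9. Both the gap between naïve brain and tumors and the differences within each group enter these values.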

How the data were processed

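RNA was sequenced from 3 naïve mouse brains and from 3 end-stage tumors each of CT2A, GL261, 005 and Mut3 after perfusion with PBS. The authors aligned reads with STAR 2.4.2a, and the submitters' processing notes also name Salmon, DESeq2 1.18.1 and the build mm10 without a role. They deposited estimated counts (expected counts, not whole numbers) and TPM per gene; the annotation release and the use of strand in counting are not given in the sources used here.

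Expected counts were rounded and fitted in edgeR 4.0.16 (R 4.3.3) with filterByExpr, TMM scaling and the quasi-likelihood test over all 15 samples with a mean per group. All p-values were adjusted by Benjamini-Hochberg over 17481 genes. Genes were called at an adjusted p below 0.05 when the log2 fold change reached 1 in either direction. The SE of an edgeR log2 fold change is its absolute value divided by the square root of the quasi-likelihood F statistic. Shares of the deposited TPM were tested with exact two-sided permutation (SciPy 1.17.1). Total counts of 3105119 to 13130158 per sample set the precision of low genes. The fit was tested on simulated data. Alternatives were library-size scaling, 2 other count filters, the replicate number as a block, only the samples compared, DESeq2 1.42.0, limma 3.58.1 on log2(TPM + 1), and leaving out each sample. Shares from annotated lengths were added after seeing the data.

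The genes and lists were chosen with earlier results of these data known. Beyond the 10 genes, the text names the called gene with the largest change in each direction per list and comparison, Mki67, Cdkn1a and Cdkn1b, the genes Trp53 and Nf1 altered in the lines, the 3 most similar genes per member, the 3 nearest coding genes on each side of 5 loci (GENCODE M21), and overlapping genes; some genes that this rule would name are not reported here. Nothing in the sources says that mice were handled as separate batches. Replicate numbers name different mice and do not pair samples.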

Additional observations from a re-analysis of the deposited data

Results flagged for a closer look

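Between lines, 13 differences passed the test of the difference itself, so that the changes of both lines against naïve brain differed. They are log2 fold changes of the first line against the second from edgeR, called at an adjusted p under 0.05. For CT2A against GL261 these were Ccnd3 (−1.87), Cdkn2b (−3.81) and Cdkn2c (2.15). For CT2A against Mut3 they were Ccnd1 (2.05) and Ccnd2 (2.51), and for GL261 against 005 Ccnd3 (2.13). For GL261 against Mut3 they were Ccnd1 (1.90), Ccnd2 (3.59), Cdkn2b (3.54), Cdkn2c (−1.43) and Rb1 (1.48). For 005 against Mut3 they were Ccnd1 (2.58) and Ccnd2 (3.97). Over all tested genes, 2.62% (GL261 against 005) to 19.8% (005 against Mut3) were called per pair of lines. Ccnd1 and Cdkn2c in GL261 against Mut3 were lost in 6 of 6 fits that left out a replicate. In CT2A against Mut3, Ccnd1 was lost in 5 and Ccnd2 in 4 of 6 such fits. Other calls also depended on single replicates, as given above. With 3 samples per group, single samples far from their group were not tested for.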

How the results depend on the processing

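Counts of the 10 genes called changed with the processing, and the changes listed here are not all of them. On log2(TPM + 1) with limma, 5 were called for GL261 against naïve brain, where edgeR called 8. For CT2A, 005 and Mut3 against naïve brain limma called 4 each, where edgeR called 6 each. Between lines limma called 1 for CT2A against 005 and 3 for GL261 against 005. Over all genes limma called 4654 of 17481 in GL261, 5531 in CT2A, 3169 in 005 and 4762 in Mut3 against naïve brain. In the pairs of lines it called 477 and 378. DESeq2 called 2 for CT2A against 005, 3 for CT2A against Mut3, 3 for GL261 against 005 and 4 for 005 against Mut3. Of all 17481 genes it called 1775, 3205, 952 and 4319. With no filter 1 was called for CT2A against 005, beside 921 of 32244 genes. With only the samples compared, 1 was called for 005 against naïve brain, 0 for GL261 against 005 and 0 for 005 against Mut3. Over all genes these fits called 222 of 14993, 148 of 15501 and 925 of 15736. Leaving out 1 sample gave 1 to 3 for CT2A against GL261, 0 to 1 for CT2A against 005, 0 to 2 for CT2A against Mut3, 0 to 3 for GL261 against 005, 2 to 3 for GL261 against Mut3 and 2 to 4 for 005 against Mut3, and a Cdk6 share difference of 0.30 to 0.62 points. In the same order, those fits called 599 to 1076, 183 to 790, 1346 to 1747, 192 to 1073, 1433 to 2249 and 1762 to 3427 of all genes (18287 to 18588 tested).

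With the replicate block, CT2A against Mut3 fell from 2 calls to 0 (over all genes from 2231 to 1822). The Cdkn2c call in GL261 against naïve brain (adjusted p = 0.059) and the Ccnd1 call in GL261 against Mut3 (adjusted p = 0.066) were lost. No other call of the 10 genes changed. Same-numbered samples come from different mice, and over 30 pairs their deviations correlated from −0.33 to 0.26, with 1 over 0.1 and 2 of 15 samples closest to their own number.

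Directions that reversed belonged to differences that were not called. With limma these were −0.034 for Ccnd1 and CT2A against GL261, −0.73 for Ccnd2, −0.067 for Ccnd3 and −0.082 for Cdkn2b in CT2A against naïve brain, −0.024 for Ccnd3 in 005, −0.017 for Cdkn2b and −0.34 for Rb1 in Mut3 against naïve brain, −0.043 for Ccnd3, −0.16 for Ccne1 and −0.32 for Rb1 in CT2A against 005, and −0.081 for Cdk4 in CT2A against Mut3. With library-size scaling they were −0.023 for Cdk4 and −0.10 for Rb1 in CT2A against 005 and −0.10 for Cdk4 in CT2A against Mut3. With only the samples compared they were 0.025 for Ccne1 in CT2A against naïve brain and 0.024 for Cdk4 and 0.023 for Cdk6 in 005 against Mut3, and for Cdkn2a in CT2A against GL261 0.032 with no filter and 0.034 with DESeq2.

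Leaving out 1 sample also crossed 0 for Ccne1 in CT2A against naïve brain (−0.17 to 0.21) and against 005 (−0.019 to 0.32), Cdk4 in CT2A against 005 (−0.36 to 0.56), CT2A against Mut3 (−0.047 to 0.41) and 005 against Mut3 (−0.49 to 0.41), Cdk6 in CT2A against 005 (−0.22 to 0.72), GL261 against 005 (−0.63 to 0.35), GL261 against Mut3 (−0.37 to 0.11) and 005 against Mut3 (−0.52 to 0.39), Cdkn2a in CT2A against GL261 (−0.32 to 0.19), Cdkn2b in CT2A (−0.79 to 0.79) and Mut3 (−0.10 to 1.06) against naïve brain and CT2A against Mut3 (−1.22 to 0.36), and Rb1 in Mut3 against naïve brain (−0.013 to 0.91) and CT2A against 005 (−0.10 to 0.25). The cause of these changes was not tested.

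Over all tested genes the calls ranged from 3956 to 7401 for CT2A against naïve brain (6858 as reported), 1988 to 5167 for GL261 (3913), 222 with only the samples compared to 6535 without 005 replicate 3 for 005 (2217) and 3628 to 7121 for Mut3 (6601). Between lines they ranged from 599 to 2353 for CT2A against GL261 (1358), 108 to 1775 for CT2A against 005 (719), 1132 to 3205 for CT2A against Mut3 (2231), 148 to 1073 for GL261 against 005 (458), 1163 to 4014 for GL261 against Mut3 (3015) and 925 to 4319 for 005 against Mut3 (3463). Requiring 10 counts in every sample left out Cdkn2a and Cdkn2b. Low counts limit the precision for Cdkn2a and Cdkn2b.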
